A study of Mus musculus with 7 samples.

Results

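The nuclear-encoded genes of the respiratory chain were followed across 6 RNA-Seq libraries of sorted DP thymocytes, the double-positive (CD4+ CD8+) stage through which developing T cells pass in the thymus. Members were chosen by symbol: the Ndufa, Ndufb, Ndufc, Ndufs and Ndufv genes of complex I, Sdha to Sdhd of complex II, the Uqcr genes of complex III, the Cox4 to Cox8 genes of complex IV and the Atp5 genes of complex V. Assembly factors with names beginning Ndufaf or Sdhaf were left out, as were pseudogenes, and 1 entry was kept per symbol. This gave 75 genes of 12092 symbols, namely 34 in complex I, 4 in complex II, 7 in complex III, 13 in complex IV and 17 in complex V. All 75 were above the expression filter of the tests. Grouping was by symbol: Ndufa4, now often described with complex IV, stands with complex I, and Cox7a2l is better known as a factor of respiratory supercomplexes. Atp5s and Atp5sl are listed by RefSeq as Dmac2l and Dmac2. They are counted in complex V by symbol only and are not taken as subunits of ATP synthase.

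The study asked what the loss of Id2 and Id3, the inhibitors of E proteins such as E2A, does to DP cells with and without pre-TCR signalling. L-DKO mice carried floxed Id2 and Id3 alleles deleted by LckCre, a Cre recombinase active from early thymocyte stages. pTαKO mice lacked pTα (Ptcra), the invariant chain of the pre-TCR, LP mice combined both deficiencies, and WT littermates completed the 4 groups. WT and pTαKO had 1 library each, L-DKO and LP had 2 each, and every library came from 1 mouse. All mice were B6/129 hybrids of 4 to 5 weeks, and DP cells were sorted as TCRγδ- CD4+ CD8+, so the cells of each genotype that pass this gate were compared and not whole thymuses.

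The respiratory chain passes electrons from NADH (complex I) and succinate (complex II) through complex III to oxygen at complex IV, and ATP synthase (complex V) uses the resulting proton gradient to make ATP. Most subunits are encoded in the nucleus and imported, while a small set of core subunits of complexes I, III, IV and V is encoded by mitochondrial DNA. DP thymocytes pass through a burst of division after the pre-TCR signal and then become small resting cells.

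Of the targeted genes, Id3 was at 6.22 in WT and 5.25 in pTαKO, and at 1.91, 3.32, 1.96 and 3.18 in the 4 libraries without Id2 and Id3, in log2(FPKM + 1), the scale of every level and difference below. Id2 was at 3.56 in WT, 1.87 in pTαKO and 0.24 to 1.92 in the others, so that LP replicate 1 lay just above pTαKO. Ptcra was not lower in the libraries labelled as lacking it (5.06 in WT, 6.35 and 6.62 in the L-DKO mice, 5.75 in pTαKO, 5.35 and 5.87 in the LP mice), and since the deleted part of the gene is not given in the sources used here, this does not check the labels. DP markers were at a mean of 8.39 to 8.58 in all libraries (10 of 12 listed genes measured). Myeloid markers (11 of 13 measured) were at a mean of 4.37 in pTαKO, 2.70 and 2.69 in the LP mice, 2.02 and 1.74 in the L-DKO mice and 1.64 in WT. The 20 most abundant entries held 30.0% of all FPKM in WT and 53.5% to 72.6% in the other libraries.

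The respiratory chain genes were abundant and even across the 6 libraries. Their mean level was 6.82 in WT, 6.93 in pTαKO, 6.70 and 6.79 in the L-DKO mice, and 6.87 and 6.78 in the LP mice, against means of 3.97 to 4.04 over all 12063 genes tested. The highest and the lowest library thus differed by 0.224, and LP replicate 2 lay below L-DKO replicate 2. In bulk RNA, fewer cells of a type and less RNA per cell cannot be told apart.

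By complex, the library means ran from 6.53 to 6.70 in complex I, 6.42 to 6.74 in complex II, 7.25 to 7.55 in complex III, 6.40 to 6.77 in complex IV and 7.12 to 7.47 in complex V. L-DKO replicate 1 was lowest in every complex except complex II, where pTαKO was lowest. The highest library was LP replicate 1 in complexes I and III, LP replicate 2 in complex II and pTαKO in complexes IV and V. Over single genes, pTαKO was the highest library for 21 of the 75 and L-DKO replicate 1 the lowest for 21. The pTαKO library also had the highest mean over all genes tested (4.04). The matching shares of all genes were not computed, so nothing is read about the chain from these counts.

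**Figure D1:**
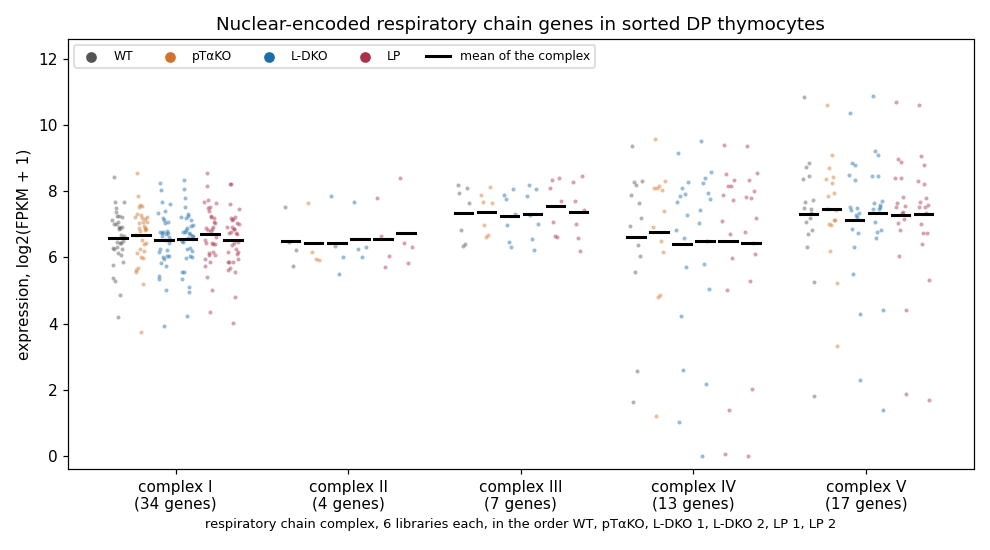
Expression of the 75 nuclear-encoded respiratory chain genes, in log2(FPKM + 1), by complex (x axis) and library, with 1 point per gene and a black bar for the mean of the complex in that library. The bars of a complex stay within 0.374 of each other in the 6 libraries, while genes of complexes IV and V reach from near 0 to above 10.

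The spread of a gene was described by its standard deviation (SD) over the 6 libraries. The median SD was 0.200 for the 75 genes and 0.325 for all genes tested. The gap was smaller among abundant genes, where the median SD was 0.195 for the 70 members with a mean of at least 5 and 0.215 for all 3519 genes above that level. The difference between the highest and the lowest library was under 1 for 65 of the 75 members (86.7%), against 84.3% of genes with a mean of at least 5 and 57.9% of all genes tested. Atp5c1, the γ subunit that forms the central stalk of ATP synthase, was the steadiest, at 7.48 in WT, 7.45 in pTαKO, 7.51 and 7.45 in the L-DKO mice, and 7.51 and 7.52 in the LP mice. Its 6 values spanned 0.07. The SD exceeded 0.5 for 5 members, which were Atp5s, Cox6a2, Cox6b2, Cox7a1 and Ndufc1.

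Within complexes, levels differed far more between subunits than between mice. FPKM is scaled to transcript length, which allows only a rough comparison between genes. In complex I the mean over libraries ran from 16.02 FPKM for Ndufb4 to 336 FPKM for Ndufa3, both accessory subunits of the membrane arm. In complex II it ran from 54.7 FPKM for the membrane anchor Sdhc to 229 FPKM for the flavoprotein Sdha, and in complex III from 84.3 FPKM for the Rieske iron-sulfur protein Uqcrfs1 to 296 FPKM for the hinge protein Uqcrh. Complex IV ran from 0.739 FPKM for Cox6a2 to 675 FPKM for Cox6a1. Complex V ran from 3.65 FPKM for Atp5s, placed there by symbol, to 1626 FPKM for Atp5b, the catalytic β subunit of ATP synthase. In the annotation Atp5b overlaps the small RNA genes Snord59a and Mir677, and their part in its level was not tested.

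Subunits that are built into a complex in equal number were not equal in mRNA. Atp5b was 5.49 times Atp5a1 in FPKM in WT and 4.72 times in pTαKO. The ratio was 3.71 and 5.34 in the L-DKO mice and 4.93 and 4.99 in the LP mice, so the L-DKO pair held both the lowest ratio and nearly the highest. Sdha exceeded the iron-sulfur subunit Sdhb by 2.12 to 3.96 times. Ratios were closer to 1 for the complex III core proteins (Uqcrc1 to Uqcrc2, 1.28 to 1.68) and for the other anchor of complex II (Sdhd to Sdhc, 0.972 to 1.46).

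In LP against L-DKO, the replicated comparison, which varies pTα on a background lacking Id2 and Id3, no respiratory chain gene passed an adjusted p of 0.05 (limma, Benjamini-Hochberg over 12063 genes). Of all genes tested, 2 passed, or 0.0166%. The median difference over members was 0.06, against 0.00143 over all genes tested, with 55 members higher in LP and 20 lower. The LP libraries lay entirely above the L-DKO libraries for 17 members and entirely below for 4, where 22.3% and 22.2% of all genes tested did so. At an unadjusted p under 0.05, 2 members were higher and 0 lower, against 6.15% and 4.94% of all genes. No member differed by 1 or more, which 9.65% of all genes did. The median standard error (SE) of a member was 0.18, and differences well above that size also failed to pass. Cox7b, at 0.67 ± 0.26 (SE), had an adjusted p of 0.452 in limma. Ndufaf2, an assembly factor outside the members, had one of 0.193 at 1.45 ± 0.20 (SE). That no member passed therefore does not exclude differences of such sizes.

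The split of 55 and 20 rested on 2 libraries. Without L-DKO replicate 1 it was 40 and 35, with a median of 0.02, and without LP replicate 1 it was 39 and 36, with a median of 0.04. It was 50 and 25 after centring each library on its median, and 47 and 28 after rescaling to the FPKM outside the 20 most abundant entries.

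**Figure D2:**
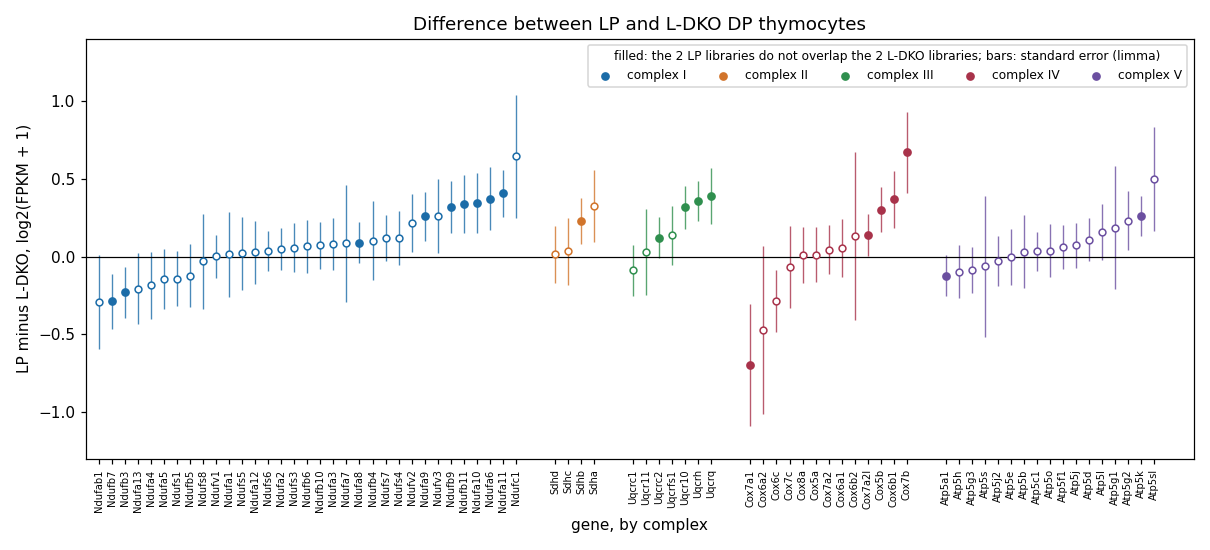
Difference between LP and L-DKO for 74 of the 75 genes (x axis, grouped by complex and ordered by size), in log2(FPKM + 1), with the standard error from limma; filled points mark genes whose 2 LP libraries do not overlap the 2 L-DKO libraries. The points run from -0.70 for Cox7a1 to 0.67 for Cox7b.

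In complex I, LP exceeded L-DKO for 25 of 34 genes (median 0.07), 7 of them without overlap, against 22.3% of all genes tested. Ndufa11, an accessory subunit of the membrane arm, was at 5.45 and 5.33 in the L-DKO mice and at 5.73 and 5.87 in the LP mice, with 5.76 in WT and 5.57 in pTαKO. Both LP libraries lay above both L-DKO libraries, and WT lay between the LP values. The difference was 0.41 ± 0.15 (SE, limma adjusted p = 0.442).

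Ndufa6 was at 7.66 and 7.53 in the L-DKO mice and 7.73 and 8.21 in the LP mice, a difference of 0.37 ± 0.20 (SE), and LP replicate 2 stood well above the rest. Ndufb7 was at 7.40 and 7.26 in the L-DKO mice and 7.23 and 6.86 in the LP mice (-0.29 ± 0.18, SE), and Ndufb3 was at 5.95 and 6.24 in the L-DKO mice and 5.87 in both LP libraries (-0.23 ± 0.16, SE). These were the only members of complex I below L-DKO without overlap, where 22.2% of all genes tested were. The LP and L-DKO libraries overlapped for the core subunits named here, most of which carry electrons from NADH through flavin and iron-sulfur centres. Among them the pTαKO library was the highest of the 6 for Ndufs1 (5.19), Ndufs7 (6.88), Ndufv1 (6.43) and Ndufv2 (7.06). It was not the highest for Ndufs3 and Ndufs8, at 6.18 and 6.85. The value for Ndufs1 is that of its most abundant entry. In its less abundant entries the pTαKO library was never the highest, at 1.20, 0.53, 0 and 2.29, so its rank for Ndufs1 depends on the entry.

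In complex II, which also belongs to the tricarboxylic acid (TCA) cycle, LP exceeded L-DKO for all 4 genes (median 0.13). Without overlap 1 gene was higher, against 22.3% of all genes tested. That gene was Sdhb, at 6.45 in WT, 6.16 in pTαKO, 6.34 and 6.25 in the L-DKO mice, and 6.63 and 6.42 in the LP mice, a difference of 0.23 ± 0.15 (SE). Sdha was at 7.53 in WT, 7.65 in pTαKO, 7.86 and 7.68 in the L-DKO mice, 7.80 in LP replicate 1 and 8.39 in LP replicate 2. Its highest value was thus in 1 LP mouse, and the other LP mouse lay between the L-DKO mice.

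Complex III had 6 of 7 genes higher in LP (median 0.14), with 4 of them without overlap, namely Uqcrh, Uqcrq, Uqcr10 and Uqcrc2. Of all genes tested, 22.3% were higher without overlap. Uqcrh was at 8.11 in WT, 8.12 in pTαKO, 8.06 and 8.08 in the L-DKO mice, and 8.40 and 8.46 in the LP mice. The 4 libraries outside LP spanned 8.06 to 8.12, and both LP libraries stood above them. The difference from L-DKO was 0.36 ± 0.13 (SE), with an unadjusted p of 0.039 and an adjusted p of 0.422 in limma. In the annotation the gene overlaps a pseudogene, Gm12854.

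Uqcrq was at 7.32 and 7.01 in the L-DKO mice and 7.69 and 7.42 in the LP mice (0.39 ± 0.18, SE), with WT at 7.63 and pTαKO at 7.65 among the LP values. Uqcr10 was at 7.88 and 7.85 in the L-DKO mice and 8.08 and 8.28 in the LP mice (0.32 ± 0.14, SE), with WT at 8.19 and pTαKO at 7.88. For both of these small subunits LP lay near WT, and for Uqcr10 the pTαKO library was as low as L-DKO. The core proteins Uqcrc1 and Uqcrfs1 overlapped between the groups.

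In complex IV, cytochrome c oxidase, 9 of 13 genes were higher in LP (median 0.04). Cox7b was at 6.05 in WT, 6.15 in pTαKO, 5.70 and 5.03 in the L-DKO mice, and 5.97 and 6.11 in the LP mice. L-DKO replicate 2 stood well below every other library, and LP was close to WT and pTαKO. The difference of 0.67 ± 0.26 (SE, limma adjusted p = 0.452) was the largest positive one of any member in this comparison.

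Cox6b1, which faces the intermembrane space, was at 7.86 and 8.24 in the L-DKO mice and 8.51 and 8.32 in the LP mice (0.37 ± 0.19, SE), with the 2 groups separated by less than the L-DKO pair. Cox5b, a zinc-binding subunit on the matrix side, was at 7.67 and 7.43 in the L-DKO mice and 7.87 and 7.83 in the LP mice (0.30 ± 0.15, SE), while WT was at 7.87 and pTαKO at 8.09. Cox5a, at 6.83 and 7.03 in the L-DKO mice and 7.11 and 6.77 in the LP mice, overlapped.

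Complex V had 11 of 17 genes higher and 6 lower (median 0.04), with 1 gene without overlap in each direction. Of all genes tested, 22.3% were higher and 22.2% lower without overlap. Atp5k, the e subunit of the membrane sector, was at 7.45 in WT, 7.94 in pTαKO, 7.49 and 7.58 in the L-DKO mice, and 7.82 and 7.78 in the LP mice. Atp5a1, the α subunit, was at 8.38 in WT, 8.36 in pTαKO, 8.49 and 8.45 in the L-DKO mice, and 8.38 and 8.30 in the LP mice. The differences were 0.26 ± 0.13 and -0.12 ± 0.13 (SE), and in Atp5k all 3 libraries without pTα stood above all 3 with it. Atp5b was at 10.37 and 10.86 in the L-DKO mice and 10.68 and 10.62 in the LP mice, so that L-DKO lay on both sides of LP.

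When the 3 libraries without pTα were set against the 3 with it, allowing for the Id genotype, again no member passed (limma, additive model), where 32 of all genes did, or 0.265%. The median difference over members was 0.09, against 0.00914 over all genes tested, with 53 higher without pTα and 22 lower. After rescaling or centring the split was 43 and 32, and without LP replicate 1 it was 42 and 33. The groups did not overlap for 6 higher members and 0 lower, against 9.94% and 8.8% of all genes tested. At an unadjusted p under 0.05, 2 members were higher and 0 lower, against 7.19% and 5.67% of all genes.

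The 6 members were Ndufa10, Ndufb11, Uqcrc2, Uqcrh, Cox7a2l and Atp5k. Atp5k differed by 0.34 ± 0.10 (SE, limma unadjusted p = 0.0182, adjusted p = 0.3), the lowest adjusted p of any member in this comparison. Ndufa10 was at 5.38 in WT, 5.33 and 5.55 in the L-DKO mice, 5.61 in pTαKO, and 5.96 and 5.61 in the LP mice (0.31 ± 0.15, SE). Ndufb11, an X-linked gene, was at 7.07 in WT, 7.12 and 6.88 in the L-DKO mice, 7.27 in pTαKO, and 7.53 and 7.15 in the LP mice (0.29 ± 0.14, SE). In both genes the gap between the groups was below 0.1, and LP replicate 1 was the highest library. Cox7a2l was 0.22 ± 0.11 and Uqcrc2 0.18 ± 0.10 higher (SE), and Cox5b, whose groups overlapped, was the other gene with an unadjusted p under 0.05 (0.27 ± 0.11, SE, limma adjusted p = 0.384). The myeloid marker list was higher without pTα in all 11 measured genes (median 1.43), and its part in these differences was not tested.

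For the Id genotype, 4 libraries without Id2 and Id3 against 2 with them, the median difference was -0.04, against 0.00499 over all genes tested, with 30 members higher and 45 lower. After rescaling, which moved the median of all genes to -0.06, the split was 20 and 55. It was 37 and 38 without L-DKO replicate 1 and 35 and 40 without LP replicate 2. No member passed in limma, and 2 of all genes did (0.0166%). The groups did not overlap for 3 higher members (Ndufa6, Sdha and Atp5e) and 6 lower members (Ndufa2, Ndufa8, Ndufs4, Cox5b, Cox6a2 and Atp5d), against 6.94% and 5.87% of all genes tested. At an unadjusted p under 0.05, 0 members were higher and 3 lower, against 3.32% and 3.1% of all genes.

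Those 3 were Ndufa2, Ndufa8 and Cox6a2. Cox6a2 lay near the expression filter, at a mean of 0.739 FPKM, and was listed at 0 in L-DKO replicate 2 and LP replicate 2. Ndufa2, an accessory subunit of the peripheral arm of complex I, was at 6.99 in WT, 7.31 in pTαKO, 6.78 and 6.77 in the L-DKO mice, and 6.90 and 6.74 in the LP mice (-0.35 ± 0.12, SE, limma adjusted p = 0.744). The 4 libraries without Id2 and Id3 lay under both others, closely under WT and further under pTαKO. Ndufa8 was at 7.0 and 7.02 with Id2 and Id3 and between 6.65 and 6.82 without them (-0.26 ± 0.11, SE, limma adjusted p = 0.772). Atp5e, the ε subunit of the central stalk, differed in the other direction, at 8.73 in WT and 8.69 in pTαKO against 8.85 and 9.21 in the L-DKO mice and 8.99 and 9.07 in the LP mice (0.32 ± 0.14, SE).

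Comparisons with the WT library, which has no replicate and was assumed to vary like the L-DKO and LP pairs, likewise had no member past the threshold, where 7 of all genes (0.058%) passed for LP and 5 (0.0414%) for L-DKO. At an unadjusted p under 0.05 there were 0 members in either comparison, against 3.74% of all genes higher and 2.35% lower for LP, and 2.41% and 1.93% for L-DKO. The 2 comparisons share the WT library. For L-DKO minus WT the median over members was -0.04, against 0.02 over all genes, with 34 members higher and 41 lower (21 and 54 after rescaling, and 45 and 30 without L-DKO replicate 1). For LP minus WT it was 0.02, equal to that over all genes, with 41 higher and 34 lower (32 and 43 after centring, 27 and 48 after rescaling, and 34 and 41 without LP replicate 1). Rescaling moved the median of all genes in LP minus WT from 0.02 to -0.09, and relative to it the member median was -0.0098.

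Ndufc1, a small membrane subunit of complex I, was at 6.44 in WT, 5.98 in pTαKO, 5.74 and 4.96 in the L-DKO mice, and 6.43 and 5.56 in the LP mice. Its difference of -1.09 ± 0.48 (SE) between L-DKO and WT was past 1, as was that of Cox6a2 (-1.11 ± 0.66, SE), against 7.4% of all genes. In LP minus WT only Cox6a2 was past 1 (-1.58 ± 0.66, SE), against 9.29% of all genes. Cox6a2 lay near the expression filter, at a mean of 0.739 FPKM over the libraries. The L-DKO pair of Ndufc1 differed by 0.77 and the LP pair by 0.86, and LP reached from the WT level down to that of L-DKO.

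The pTαKO library exceeded all 5 other libraries by 0.5 or more in 3 of the 75 genes, Cox7a1, Atp5s and Atp5j. Since 4.03% of all genes tested did so, nothing is read about the chain from this count. By the same measure L-DKO replicate 1 was lowest for Atp5g1 and Cox6b2 (2.09% of all genes), L-DKO replicate 2 for Cox7b and Ndufc1 (4.42%) and LP replicate 1 for Cox7a1 (2.18%). LP replicate 2 was highest for Sdha (2.59%), and the WT library stood out for no member. Cox7a1, the form of subunit VIIa typical of heart and skeletal muscle, was at 4.87 in pTαKO, 2.55 in WT, 2.60 and 2.18 in the L-DKO mice, and 1.37 and 2.01 in the LP mice. Atp5j, coupling factor 6 of the ATP synthase stalk, was at 8.43 in pTαKO, 7.19 in WT, 7.28 and 7.45 in the L-DKO mice, and 7.35 and 7.53 in the LP mice. Atp5s, named coupling factor B, was at 3.32 in pTαKO and between 1.39 and 2.29 in the other 5 libraries.

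With 1 library on each side, pTαKO minus WT is a difference without a test. It was 2.32 for Cox7a1, 1.5 for Atp5s and 1.24 for Atp5j, no member was lower by 1 or more, and 12.4% of all genes differed by 1 or more either way. Over members the median was 0.11, against 0.02 over all genes tested, with 44 higher and 31 lower. The member median was 0.03 after centring and 0.05 after rescaling. In LP minus pTαKO, the difference was -3.18 ± 0.48 for Cox7a1 (SE, limma unadjusted p = 0.00132, adjusted p = 0.291) and -0.99 ± 0.18 for Atp5j (SE, limma unadjusted p = 0.00284, adjusted p = 0.428). Neither passed the threshold, which 12 of all genes did (0.0995%). At an unadjusted p under 0.05, 0 members were higher and 4 lower (Cox7a1, Atp5j, Atp5s and Ndufa2), against 2.9% and 3.29% of all genes. Over members the median was -0.01, with 36 higher and 39 lower (26 and 49 after rescaling, and 42 and 33 without LP replicate 2).

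The interaction, whether the effect of losing Id2 and Id3 differed without pTα, was -1.16 ± 0.25 (SE) for Atp5j and -3.02 ± 0.68 (SE) for Cox7a1, with adjusted p of 0.902 and 0.968 in limma. These were the only 2 members with an unadjusted p under 0.05, against 1.96% of all genes above 0 and 2.5% below, and 6 of all genes passed (0.0497%). Both rest on the pTαKO library.

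The marker lists of other cells also differed between the libraries. The myeloid list had its highest level there in 9 of 11 measured genes (not in Lyz2 and Itgam), among them C1qc at 6.35 against 1.75 to 2.81 in the other libraries. The erythroid list (4 of 7 measured) was at a mean of 7.77 in pTαKO, 6.0 in WT, 6.27 and 8.33 in the L-DKO mice, and 8.05 and 7.27 in the LP mice, and all 4 genes were higher in pTαKO than in WT (median 1.81). The thymic epithelium list (4 of 7 measured) was at a mean of 2.74 in pTαKO and 1.67 to 2.28 elsewhere. The B cell list (5 of 9 measured) was at a mean of 3.87 in pTαKO, 3.79 and 3.67 in the LP mice and 2.22 to 2.68 in WT and L-DKO. Of 10 striated muscle markers 2 were measured, with Ckm between 0.08 and 1.18 and highest in L-DKO replicate 2, and Tnnt3 at 3.17 in pTαKO and 2.05 to 4.16 elsewhere. The part of these cells in the pTαKO values was not tested. Atp5j overlaps the divergent gene Gabpa by 967 bases in the annotation, and Gabpa was at 5.13 in pTαKO against 4.64 to 5.10 in the other libraries.

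**Figure D3:**
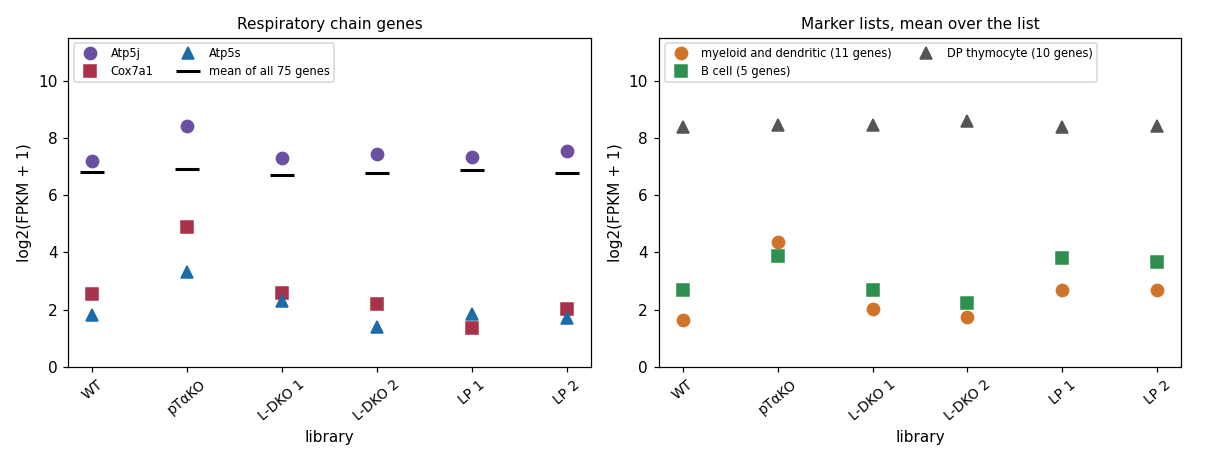
Levels in log2(FPKM + 1) by library: left, Atp5j, Cox7a1 and Atp5s with the mean of all 75 genes as a bar; right, the mean of 3 marker lists. The pTαKO library is highest for the 3 genes (8.43, 4.87 and 3.32) and for the myeloid list (4.37), while the mean of all 75 genes and the DP list stay level.

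Several positions of the chain can be filled by products of more than 1 gene, and the order of the forms was the same in every library. Subunit c of ATP synthase, which forms the rotor ring, is encoded by Atp5g1, Atp5g2 and Atp5g3 with the same mature protein. Atp5g3 gave 60.6% to 72.4% of the FPKM of the family, Atp5g2 17.8% to 24.9% and Atp5g1 9.84% to 17.2%. Atp5g1 was the variable member, at 6.31 in WT, 6.19 in pTαKO, 5.49 and 6.58 in the L-DKO mice, and 6.03 and 6.41 in the LP mice, and the L-DKO pair held both its lowest and its highest value.

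For subunit VIa, Cox6a1, the form of most tissues, gave 99.7% of the FPKM in WT and more in the other libraries. Cox6a2, the heart and muscle form, was at 1.62 in WT, at 1.20 in pTαKO, at 1.02 in L-DKO replicate 1 and at 0.07 in LP replicate 1, and was listed at 0 in L-DKO replicate 2 and LP replicate 2. It overlaps the integrin gene Itgad by 70 bases. For subunit VIb, Cox6b2, a form known from testis, gave 7.09% to 15.5% and was at 5.56 in WT, 4.80 in pTαKO, 4.22 and 5.81 in the L-DKO mice, and 5.01 and 5.29 in the LP mice. The L-DKO pair again enclosed all other libraries.

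In the Cox7a family, taken by symbol, Cox7a2l gave 68.9% to 74.2%, Cox7a2 23.6% to 28.5%, and Cox7a1 0.41% to 1.70% except in pTαKO, where it gave 7.54%. These shares count Cox7a2l, better known as a supercomplex factor, and without it the share of Cox7a1 would be larger. In pTαKO, Cox7a1 was at 28.3 FPKM and Cox7a2 at 88.5 FPKM. Cox7a2 itself was at 6.48 in pTαKO and 6.37 to 6.71 elsewhere. The higher share thus came with a higher Cox7a1 level and no lower Cox7a2 level. In the annotation Cox7a2 overlaps the pseudogene Gm51685 by 2858 bases and the gene Tmem30a by 2482 bases. Their part in its level and in these shares was not tested. Only 1 form each of Cox7b, Cox8 and Ndufa4 was measured. Cox4i1, with Ndufb2, Ndufb8, Ndufc2 and Uqcrb, was not analysed here.

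**Figure D4:**
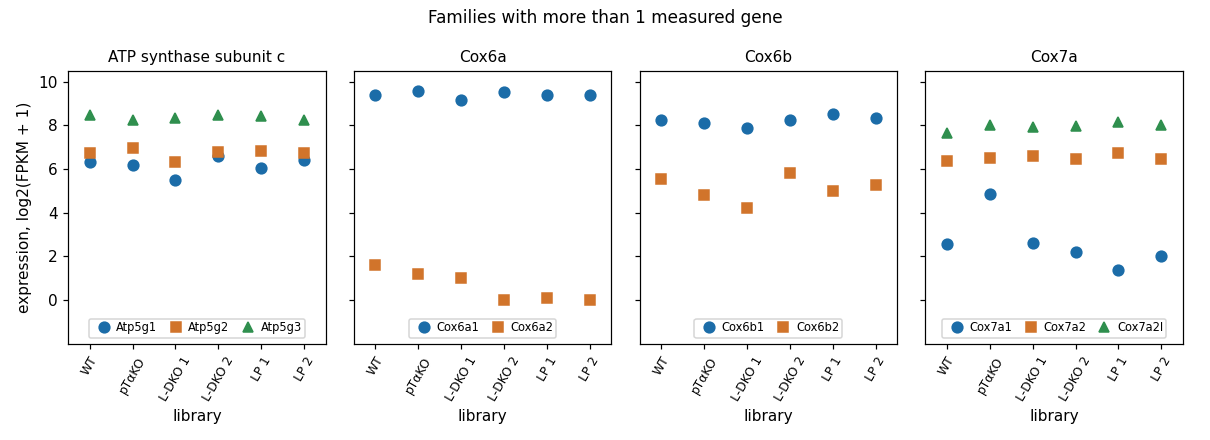
Levels in log2(FPKM + 1) of the genes of 4 families in the 6 libraries: subunit c of ATP synthase and the Cox6a, Cox6b and Cox7a families of complex IV. The order of the genes is the same in every library, and Cox7a1 at 4.87 in pTαKO is far from the other 5 values of its gene.

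The promoters of the chain were examined for short motifs of factors known to control mitochondrial genes. Of the 75 genes, 62 matched the RefSeq promoter table (GRCm38.p6), with 67 windows of 300 bases from 250 before to 50 after the start. The NRF1 core GCGCATG, on either strand, was in 17.91% of the windows, against 3.909% of all windows in the table and 7.164% of those of genes tested. The ETS motif CCGGAAG was in 23.88%, against 8.858% and 19.12%, and the YY1 motif AAGATGG in 13.43%, against 6.338% and 7.303%. The SP1 motif GGGCGG was in 38.81%, against 35.66% and 62.91%. The E-box forms CAGCTG and CAGGTG, which E2A can bind, were in 29.85%, against 32.95% of all windows and 29.79% of those of genes tested, and the CCAAT box in 40.3%, against 37.41% and 38.16%. In windows of genes tested with a mean of at least 5, the shares were 7.879% for NRF1, 21.48% for ETS and 8.587% for YY1. They were 65.47% for SP1, 27.85% for the E-box forms and 37.4% for the CCAAT box. The ETS share of members was thus near that of genes at this level. A match describes the letters and is no evidence of binding.

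The 120 bases before the start are shown for 5 genes chosen after their values and matches were seen: Ndufa11, Uqcrh, Cox5b and Atp5k, the members with an unadjusted p under 0.05 in LP minus L-DKO or in the pTα comparison, and Cox7a1, the most variable member. Each reads 5′ to 3′ on the strand of the gene, with motif letters in capitals. Ndufa11 and Atp5k hold the NRF1 core on both strands as overlapping matches, Cox5b holds it once, Uqcrh holds a CCAAT box and an ETS motif read on the opposite strand, and Cox7a1 holds only a CCAAT box, also on the opposite strand.
Ndufa11 (chr17:56717642-56717761, plus strand): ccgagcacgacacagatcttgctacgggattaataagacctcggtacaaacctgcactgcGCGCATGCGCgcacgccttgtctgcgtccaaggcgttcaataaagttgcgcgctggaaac
Uqcrh (chr4:116075071-116075190, minus strand): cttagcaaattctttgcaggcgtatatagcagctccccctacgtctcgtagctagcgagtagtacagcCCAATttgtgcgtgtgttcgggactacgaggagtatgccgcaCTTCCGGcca
Cox5b (chr1:36691367-36691486, plus strand): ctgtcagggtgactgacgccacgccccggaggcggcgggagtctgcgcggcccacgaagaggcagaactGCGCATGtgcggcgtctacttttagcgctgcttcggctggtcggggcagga
Atp5k (chr5:108434400-108434519, minus strand): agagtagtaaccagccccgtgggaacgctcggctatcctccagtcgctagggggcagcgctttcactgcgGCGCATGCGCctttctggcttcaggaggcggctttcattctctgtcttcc
Cox7a1 (chr7:30184051-30184170, plus strand): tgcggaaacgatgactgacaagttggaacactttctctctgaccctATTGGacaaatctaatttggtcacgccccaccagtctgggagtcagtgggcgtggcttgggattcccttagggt

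Around the chain itself, no gene of the related lists passed the adjusted threshold in LP minus L-DKO or in the pTα comparison. The 49 measured assembly factors had a median of 0.17 in LP minus L-DKO, with 33 higher and 16 lower. Of these 15 were above and 4 below without overlap, where 22.3% and 22.2% of all genes were. Ndufaf2, an assembly factor of complex I, was at 3.54 in WT, 4.26 and 4.34 in the L-DKO mice, 5.95 in pTαKO, and 5.56 and 5.93 in the LP mice. The 3 libraries without pTα stood over 1 above the 3 with it, a difference of 1.77 ± 0.24 (SE, limma adjusted p = 0.072). Mitochondrial ribosomal proteins (73 measured) had a median of 0.12, with 51 higher and 22 lower (23 and 5 without overlap). The 79 cytosolic ribosomal proteins had a median of 0.21, with 72 higher and 7 lower (53 and 2 without overlap).

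Other routes of energy metabolism had medians close to 0 in LP minus L-DKO. The TCA cycle enzymes (18) had a median of -0.02, the glycolysis list (17) of -0.04 and the electron carriers and entry points (16), which include cytochrome c and the coenzyme Q enzymes, of 0.03. Single genes of the last list lay further out, with Coq6, a coenzyme Q enzyme, at -1.24 ± 0.33 and Etfa, a subunit of the electron transfer flavoprotein, at 0.66 ± 0.16 (SE). In the pTα comparison the glycolysis list had a median of -0.14, with 6 genes higher and 11 lower, and in the Id comparison one of 0.21.

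The 15 regulators of mitochondrial biogenesis had a median of -0.18 in LP minus L-DKO, with 5 higher and 10 lower. At an unadjusted p under 0.05, 2 were higher and 0 lower, against 6.15% and 4.94% of all genes. The 2 regulators were Pprc1, a relative of the coactivator PGC-1α, at 1.06 ± 0.25 (SE, limma adjusted p = 0.326), and Myc at 0.71 ± 0.22 (SE, limma adjusted p = 0.386). Nrf1, whose motif is described above, was at 5.52 in WT, 5.60 in pTαKO, 5.86 and 5.88 in the L-DKO mice, and 5.73 and 5.63 in the LP mice (-0.19 ± 0.14, SE).

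The cell cycle list, set beside the chain, lay on the other side of 0. Of its 34 measured genes 33 were below L-DKO in LP (median -0.61). Without overlap 26 lay below, against 22.2% of all genes tested, and 14 were lower at an unadjusted p under 0.05 in limma, against 4.94%. Its mean was 5.70 in WT, 5.46 in pTαKO, 5.36 and 5.73 in the L-DKO mice, and 4.83 and 5.11 in the LP mice, so that both LP libraries lay below the other 4. Aurkb, a mitotic kinase, differed by -0.87 ± 0.24 (SE, limma adjusted p = 0.35). All these lists were chosen with earlier results of these data known, and none is compared with the chain by a test.

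**Figure D5:**
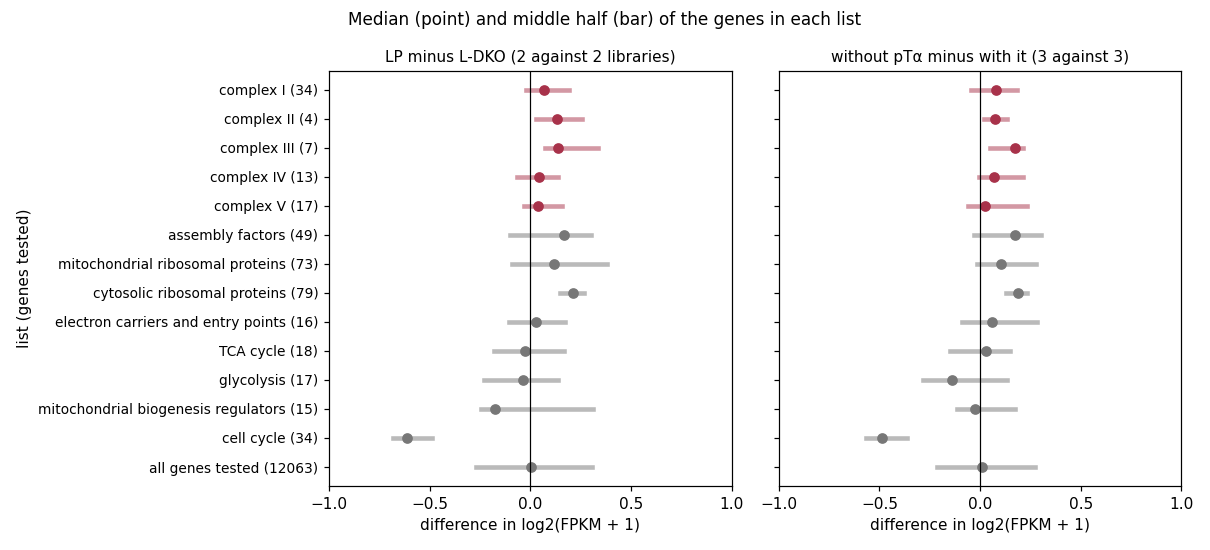
Differences in log2(FPKM + 1) for LP minus L-DKO (left) and for libraries without pTα minus those with it (right), with a point for the median of each list and a bar from its lower to its upper quartile. The medians of complexes I to V lie between 0.03 and 0.18, and the cell cycle list lies at -0.61 and -0.49.

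The mitochondrially encoded partners could be followed only in part. Of 13 such subunit genes 3 were measured, mt-Nd6 of complex I, mt-Cytb of complex III and mt-Atp6 of complex V, and all 3 were listed at 0 in LP replicate 1. Elsewhere mt-Atp6 was at 14.54 in WT, 14.66 in pTαKO, 14.29 and 14.45 in the L-DKO mice and 14.53 in LP replicate 2. mt-Cytb was at 11.42 in WT, 10.96 in pTαKO, 10.61 and 11.34 in the L-DKO mice and 11.17 in LP replicate 2. The nuclear-encoded genes had no such gap, and LP replicate 1 had the highest median of the 6 libraries over the 75 genes (7.06). Since the 3 genes are used by every cell, a value of 0 here is given as listed, and no difference between LP and the other groups was drawn from them.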

How the data were processed

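RNA-Seq was made from poly(A) RNA of sorted DP cells with oligo(dT) enrichment and random hexamers. Per the submitters' processing notes, the authors used Trimmomatic 0.32, TopHat2 2.0.9 and Cufflinks 2.2.0 on mm10 (GRCm38), and removed low-quality genes in R by a rule not given in the sources used here. The deposited values are log2 FPKM, read as log2(FPKM + 1) because they start at 0 and none is negative; sequencing depth is not stated. Whether strand was used in counting is not stated, so reads of overlapping genes cannot be told apart. The 6 library columns of 13097 entries were used, and the authors' 2 group means and 3 fold change columns were not. Of 7 labelled samples, pTαKO replicate 1, removed by the submitters, was not analysed here. Hyphens were restored in 297 symbols.

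Genes averaging 0.5 FPKM or more, 12063 in number, were fitted with limma 3.58.1 (R 4.3.3, trended eBayes, Benjamini-Hochberg, two-sided) with 1 mean per group (2 residual degrees of freedom) or with additive Id and pTα terms (3), and the fit was tested on simulated data. WT and pTαKO, with 1 library each, were assumed to vary like the pairs. Each library is 1 mouse, so p-values cover the spread between few mice. Named genes were those without overlap between groups and largest per complex, the extremes of abundance, the core subunits and the isoform families. The members and lists were chosen with earlier results of these data known. Promoters and overlaps are from RefSeq tables for GRCm38.p6. The values of 1 member are not reported here by name, and it is counted in all totals.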

Additional observations from a re-analysis of the deposited data

How the results depend on the processing

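No respiratory chain gene passed the adjusted threshold in any comparison under the alternatives run, which were centring, rescaling without the 20 most abundant entries, a pseudocount of 0.1, no filter, a mean of at least 5 FPKM, summed entries, no variance trend, a replicate block and leaving out single libraries. The lowest adjusted p was 0.203, for LP minus pTαKO after rescaling. The median over members moved by more than the replicate SD of 0.113 in 1 case, LP minus WT after rescaling, at -0.0961. Counts over all genes varied more: 2 in LP minus L-DKO (1 to 13 under the alternatives), 32 for the pTα factor (1 to 33), 2 for the Id factor (2 to 5), 7 in LP minus WT (1 to 13), 5 in L-DKO minus WT (0 to 13), 12 in LP minus pTαKO (7 to 17) and 6 for the interaction (4 to 15).

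Leaving out single libraries, the median over members ranged from 0.0193 to 0.168 in LP minus L-DKO, from 0.0583 to 0.127 for the pTα factor, from -0.0807 to -0.0175 for the Id factor, from -0.0369 to 0.0532 in LP minus WT, from -0.0959 to 0.0492 in L-DKO minus WT, from -0.091 to 0.0277 in LP minus pTαKO and from -0.0789 to 0.0386 for the interaction. In LP minus L-DKO, Uqcrh stayed between 0.33 and 0.39 while Cox7b ranged from 0.33 to 1.01, Ndufa6 from 0.14 to 0.61, Cox6b1 from 0.18 to 0.56, Uqcrq from 0.24 to 0.54, Sdhb from 0.12 to 0.34, Ndufb3 from -0.38 to -0.08, Ndufb7 from -0.47 to -0.10 and Cox7a1 from -1.01 to -0.38. Leaving out pTαKO replicate 2, an alternative chosen after its myeloid marker levels were seen, gave 0 members past the threshold.

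Same-numbered L-DKO and LP mice did not vary together (correlation of deviations 0.035), so the numbers pair nothing. With a replicate block 0 members passed, 1 gene of all was called for the pTα factor, and the median of LP minus WT was 0.05. Depth is not stated, so a value listed at 0 has no detection limit.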
